A study of Mus musculus with 12 samples.

Results

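Heat shock protein genes were followed in the injured mouse retina, as 10 genes taken by symbol from the 25655 genes of the deposited count tables: Hspa1a, Hspa1b, Hspa8, Hspa5, Hsph1, Hsp90aa1, Hsp90ab1, Hspb1, Dnajb1 and Bag3. All 10 had a row of counts and all passed the filter on low counts, so none is left out below. The samples were whole retinas of wild-type C57BL/6J mice, labelled as 8 to 10 weeks old. The optic nerve of the left eye was crushed (optic nerve crush, ONC) and a single intravitreal injection followed within minutes. Retinas were taken 2 days after ONC, so every group, the PBS group (Ctr) included, carried the injury, and no intact retina is among the samples. The injection held PBS, fluvastatin (a statin, which inhibits HMG-CoA reductase, the rate-limiting enzyme of cholesterol synthesis), matrix-bound nanovesicles (MBV, lipid vesicles prepared from the extracellular matrix of porcine urinary bladder) or MBV and fluvastatin together. Each group had 3 samples. The combined treatment is not analysed here, because its count columns carry no sample names, which leaves 9 libraries.

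Heat shock proteins are molecular chaperones that bind unfolded or misfolded proteins and help them fold, assemble or be degraded. HSP70 proteins clamp onto short hydrophobic stretches in a cycle driven by ATP, J-domain proteins such as DNAJB1 hand clients to them and start ATP hydrolysis, and nucleotide exchange factors such as HSPH1 and BAG3 reset the cycle, while HSP90 acts later on kinases, receptors and other clients. Some members are made in every cell at all times, and others are induced when heat shock factor 1 (HSF1) is released by protein damage and binds heat shock elements, inverted repeats of the letters GAA, in front of its target genes. HSPA5 (BiP) serves the endoplasmic reticulum (ER) and is induced by the unfolded protein response through another element.

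The promoters are shown for the paired repeats that make up a heat shock element, which lie near the start site of some members. Letters were searched from 250 bases before to 50 bases after the GENCODE start site of 21770 protein-coding genes on GRCm39, on both strands. The pairs were GAANNTTC and TTCNNGAA, and neighbouring pairs can overlap. At least 1 pair lay in the windows of 5 of the 10 members and in 14.3% of all promoters. The strict triple of both pairs lay in no member and in 0.478% of all promoters. The upstream bases of the inducible pair Hspa1a and Hspa1b and of the small heat shock protein gene Hspb1 follow, 5′ to 3′ and ending at the base before the start site, with the letters of each pair in capitals. They are at chr17:35191133-35191282 and chr17:35178215-35178364 on the minus strand and chr5:135916610-135916759 on the plus strand.
Hspa1a: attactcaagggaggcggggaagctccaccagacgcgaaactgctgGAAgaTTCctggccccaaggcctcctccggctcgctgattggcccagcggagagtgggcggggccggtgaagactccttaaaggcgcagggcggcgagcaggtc
Hspa1b: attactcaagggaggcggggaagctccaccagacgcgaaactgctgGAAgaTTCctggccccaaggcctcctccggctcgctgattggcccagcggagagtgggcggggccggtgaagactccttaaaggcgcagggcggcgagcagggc
Hspb1: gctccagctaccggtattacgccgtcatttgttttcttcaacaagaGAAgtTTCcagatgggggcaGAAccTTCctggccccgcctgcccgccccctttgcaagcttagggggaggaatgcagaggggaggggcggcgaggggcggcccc
The stretches of Hspa1a and Hspa1b were identical at 149 of 150 bases, and each held 1 pair that began 104 bases upstream. Hspb1 held 2 pairs, which began 104 and 84 bases upstream. Hsph1 held a TTCNNGAA pair 28 bases upstream and another from base 42 of the transcript, and Dnajb1 held a GAANNTTC pair from base 29 of the transcript. Hspa5 was the only member with an ER stress response element (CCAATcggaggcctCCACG, with the searched letters in capitals), 67 bases upstream, which 0.124% of all promoters held. Neither motif was found in the windows of Hspa8, Hsp90aa1, Hsp90ab1 and Bag3. These matches describe the letters only.

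In the deposited tables Hspa1a and Hspa1b lie close together on chromosome 17, at chr17:35188166-35191132 and chr17:35175412-35178214 on the minus strand of GRCm39, and Hspa1a overlaps Gm20481, a gene on the other strand. The strand setting of the counting is not stated. Gm20481 had at most 1 count in any library. 2610306O10Rik, which overlaps Bag3 on the same strand, had 0 counts in every library, and a count of 0 allows up to 3. Of all 75-base stretches of its transcript, the read length here, Hspa1a shared 61.7% with another gene and Hspa1b 55.84%, in both mostly with the other copy, so reads of this pair can be split between them by the counting. The shares were 68.02% for Hspa8, 56.77% for Hspb1 and 49.28% for Hsp90aa1, mostly with pseudogenes or predicted gene models, and 37.79% for Hspa5 with its neighbour Rabepk. Hsph1 and Dnajb1 shared none, so their counts are the least ambiguous.

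The count tables held 21349516 to 30992040 counts per library, and the 10 members took between 0.295% and 0.349% of them. Levels are given as CPM, which are counts divided by the library's total and set to a common library size. Of the retinal markers, Gnat1 (rods) and Rlbp1 and Glul (Müller glia) were detected in every library. The libraries came in 2 numbered sets, with PBS in the first and fluvastatin and MBV in the second, so a difference between either treatment and PBS and a difference between sets cannot be told apart. MBV and fluvastatin lie in the same set. Against PBS, the fold changes of all genes rose with the GC content of their transcripts: across 13641 genes with at least 1 CPM, Spearman's correlation was 0.42 for fluvastatin, 0.39 for MBV and 0.06 for MBV against fluvastatin (genes are not independent replicates). In the lowest of 10 equal groups by GC content the median log2 fold change of fluvastatin against PBS was -0.18, and in the highest it was 0.14. Each comparison is therefore also given with GC content offsets, a correction chosen after the data were seen. In a whole retina, more cells of a type and more RNA per cell cannot be told apart.

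Per length of transcript, the levels spanned a wide range. Hsp90aa1, the stress-responsive cytosolic HSP90, had 387 ± 9.10 CPM per kilobase with PBS (SD, n = 3) and Hspa8, the constitutive cytosolic HSP70, 338 ± 11.7. Hsp90ab1, the constitutive HSP90, followed at 133 ± 8.77 and Hspa5 at 44.8 ± 0.970. The inducible Hspa1a and Hspa1b were at 27.4 ± 0.872 and 22.2 ± 0.713 CPM per kilobase, and Dnajb1 at 11.5 ± 0.484 and Hsph1 at 7.93 ± 0.295. Hspb1 (3.95 ± 0.468) and Bag3 (3.05 ± 0.870) were lowest, and theirs was the only neighbouring pair in this order whose PBS libraries overlapped. With fluvastatin and with MBV the first 2 places were exchanged, with Hspa8 at 431 ± 29.2 and 425 ± 15.7 CPM per kilobase and Hsp90aa1 at 387 ± 21.3 and 365 ± 7.53.

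**Figure D1:**
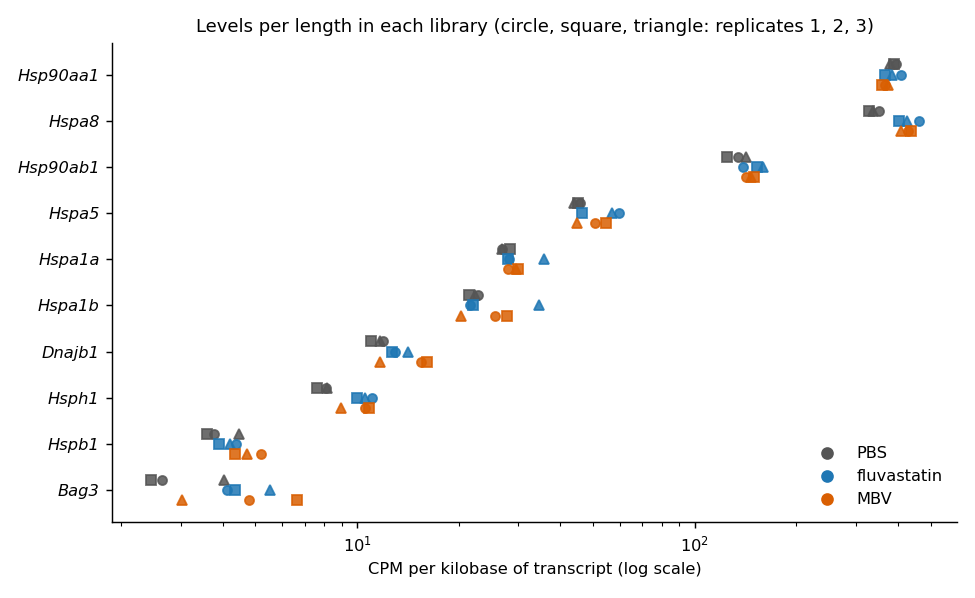
Level per length of the 10 heat shock protein genes in each of the 9 libraries, as CPM per kilobase of transcript on a log axis, coloured by group. The levels run from about 3 CPM per kilobase for Bag3 to over 300 for Hspa8 and Hsp90aa1, and the Hspa8 points of both treatments lie to the right of the PBS points.

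Hspa8 and Hsph1 were higher with both treatments than with PBS, without overlap. Hspa8, which folds new proteins and strips clathrin from vesicles at the synapse, had 840.1, 784 and 806 CPM with PBS, 1105, 967 and 1020.3 CPM with fluvastatin and 1027, 1049.7 and 976 CPM with MBV. All 6 treated libraries lay above all 3 PBS libraries, and the treated groups overlapped each other. Tested with edgeR (quasi-likelihood, with the Benjamini-Hochberg adjusted p over all genes tested given as FDR), Hspa8 rose by a log2 fold change of 0.35 with fluvastatin (SE 0.0555, FDR 0.00258) and of 0.30 with MBV (SE 0.0445, FDR 0.00201). This is an increase of 27.6% and of 22.8%.

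Hsph1, a large HSP110 protein that exchanges nucleotide on HSP70 and takes part in pulling apart aggregates, had 49.8, 46.9 and 50.2 CPM with PBS, 68.5, 61.7 and 65.4 CPM with fluvastatin and 65.1, 66.8 and 55.4 CPM with MBV. MBV replicate 3 was the lowest treated library and still lay above every PBS library. Hsph1 rose by a log2 fold change of 0.42 with fluvastatin (SE 0.0551, FDR 0.00132) and of 0.32 with MBV (SE 0.0643, FDR 0.00739). Both genes passed the FDR of 0.05 in every fit that left out 1 library. With GC content offsets the log2 fold changes were 0.32 and 0.27 for Hspa8 and 0.45 and 0.36 for Hsph1, all with an FDR under 0.05.

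The inducible copies Hspa1a and Hspa1b did not pass the threshold in any comparison. Hspa1a had 79.9, 84.3 and 79.8 CPM with PBS, 83.6, 83.1 and 106 CPM with fluvastatin and 82.8, 88.6 and 87.6 CPM with MBV. Hspa1b had 64.0, 60.1 and 62.8 CPM with PBS, 60.4, 61.8 and 96.7 CPM with fluvastatin and 71.8, 78.0 and 56.9 CPM with MBV. In both genes fluvastatin replicate 3 stood above all other libraries, and the other 2 fluvastatin libraries lay within or next to the PBS range.

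Added together, the copies gave 144, 144 and 143 CPM with PBS, a spread of 0.954 (SD), and 144, 145 and 203 CPM with fluvastatin. The sum had 155, 167 and 145 CPM with MBV. Its log2 fold change against PBS was 0.19 with fluvastatin (95% interval -0.05 to 0.43, FDR 0.250) and 0.08 with MBV (-0.03 to 0.19, FDR 0.269), and neither passed the threshold. For the single genes the FDR was 0.211 and 0.315 with fluvastatin and 0.485 and 0.414 with MBV. Without fluvastatin replicate 3 the log2 fold change of Hspa1b with fluvastatin was -0.02. The share of the pair's counts given to Hspa1b ran from 39.4% in MBV replicate 3 to 47.7% in fluvastatin replicate 3.

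Hspa5, the ER member of the HSP70 family, which also holds the sensors of the unfolded protein response inactive, had 226, 223 and 217 CPM with PBS, 295, 229 and 282 CPM with fluvastatin and 251, 269.9 and 221 CPM with MBV. The fluvastatin libraries lay above the PBS libraries, by little in replicate 2, and 1 MBV library lay within the PBS range. Hspa5 rose by a log2 fold change of 0.28 with fluvastatin (SE 0.0785, FDR 0.0315). With MBV the value was 0.12 (95% interval -0.01 to 0.25, FDR 0.164). The GC content of its transcript, 44.4%, is low among all genes, and with GC content offsets it passed the threshold in both comparisons, at 0.38 (FDR 0.0130) and 0.24 (FDR 0.0230). The call with fluvastatin was lost on leaving out any PBS library (FDR 0.0788, 0.0686 and 0.0686 without replicates 1, 2 and 3) or fluvastatin replicate 3 (FDR 0.105).

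**Figure D2:**
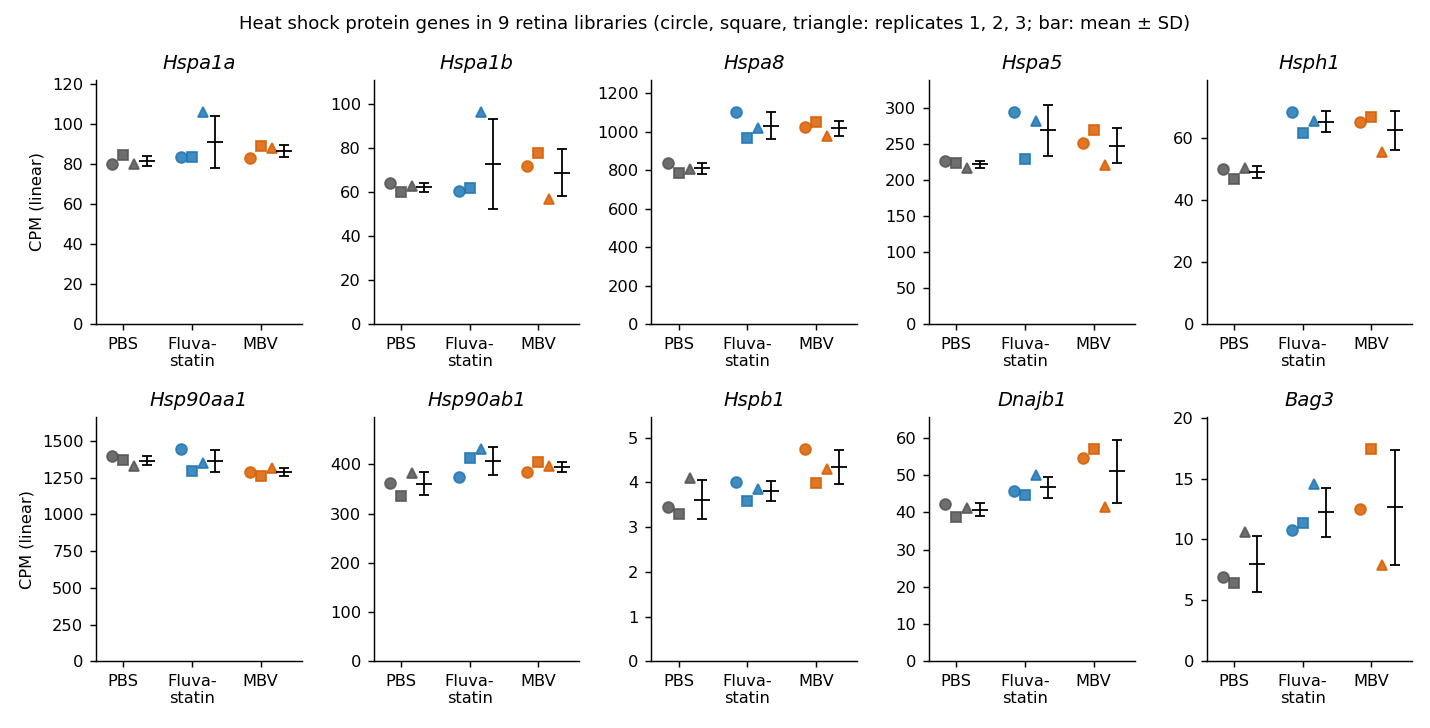
CPM of the 10 heat shock protein genes in 9 retina libraries, 3 each with PBS, fluvastatin and MBV, on linear axes that start at 0. Points are libraries, with circle, square and triangle for replicates 1, 2 and 3, and bars are the mean ± SD of 3 libraries. Hspa8 and Hsph1 separate from PBS in both treatments, and fluvastatin replicate 3 stands apart in Hspa1a and Hspa1b.

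The 2 cytosolic HSP90 genes did not pass the threshold in any comparison. Hsp90aa1 had 1396, 1371 and 1333 CPM with PBS, 1445, 1297 and 1353 CPM with fluvastatin and 1288, 1264 and 1318 CPM with MBV. The MBV libraries lay below the PBS libraries, while the fluvastatin libraries spanned the PBS range. The log2 fold change was 0.00 with fluvastatin (95% interval -0.11 to 0.12, FDR 0.976) and -0.12 with MBV (-0.23 to -0.00, FDR 0.117), and neither passed the threshold. With GC content offsets the values were 0.11 (SE 0.050, FDR 0.200) with fluvastatin and 0.00 with MBV.

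Hsp90ab1 had 363, 336 and 383 CPM with PBS, 375, 412 and 431 CPM with fluvastatin and 384, 404 and 397 CPM with MBV. PBS replicate 3 reached into the range of the fluvastatin libraries and nearly to that of the MBV libraries. The log2 fold change was 0.18 with fluvastatin (95% interval 0.04 to 0.31, FDR 0.0660) and 0.10 with MBV (-0.02 to 0.22, FDR 0.205). Hsp90ab1 passed the threshold with fluvastatin by DESeq2's Wald test (adjusted p 0.0272), without PBS replicate 3 (FDR 0.0461) and without fluvastatin replicate 1 (FDR 0.00838).

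Dnajb1, the stress-inducible J-domain partner of HSP70, had 42.2, 38.9 and 41.2 CPM with PBS, 45.7, 44.7 and 49.9 CPM with fluvastatin and 54.5, 57.1 and 41.4 CPM with MBV. The fluvastatin libraries lay just above PBS, and MBV replicate 3 lay within the PBS range while the other MBV libraries were the highest of all. It rose by a log2 fold change of 0.20 with fluvastatin (SE 0.0584, FDR 0.0349), and the value with MBV was 0.29 (SE 0.0965, FDR 0.0562). With MBV it passed the threshold by DESeq2's Wald test (adjusted p 0.0275), in 1 fit of all 9 libraries (FDR 0.0319) and without MBV replicate 3 (FDR 0.000388), and not with GC content offsets (FDR 0.120). The fluvastatin call was lost without any PBS library (FDR 0.0762, 0.121 and 0.0675) and without fluvastatin replicate 2 or 3 (FDR 0.0540 and 0.120), and with GC content offsets (0.16, FDR 0.116).

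Bag3, a co-chaperone that links HSP70 and small heat shock proteins to selective autophagy, varied widely between replicates. It had 6.94, 6.42 and 10.6 CPM with PBS, 10.8, 11.4 and 14.5 CPM with fluvastatin and 12.5, 17.4 and 7.94 CPM with MBV, from 188 to 372 counts per library. All fluvastatin libraries lay above PBS, replicate 1 by little, and MBV replicate 3 lay within the PBS range. Bag3 had the highest called log2 fold change of the 10 genes, 0.62 with fluvastatin (SE 0.179, FDR 0.0343), and 0.63 with MBV (SE 0.262, FDR 0.113). The fluvastatin call was lost with GC content offsets (0.52, FDR 0.0911) and without PBS replicate 1 or 2 (FDR 0.136 and 0.111) or fluvastatin replicate 2 or 3 (FDR 0.0831 and 0.124).

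Within every group, the libraries ranked by Bag3 in the order of their immediate early genes, which also respond to handling of tissue. The summed level of Fos, Fosb, Jun, Junb, Egr1, Ier2, Atf3 and Dusp1 was 225, 219 and 378 CPM in the PBS libraries, 241, 262 and 282 CPM in the fluvastatin libraries and 321, 413 and 248 CPM in the MBV libraries. PBS replicate 3, fluvastatin replicate 3 and MBV replicate 2 were the highest of their groups in both measures, and MBV replicate 3 was the lowest of its group in both. Hspa1b, Hspa8, Hspa5, Hsph1 and Dnajb1 had the same order in the MBV group, but not in every group. None of the 8 genes passed the threshold against PBS in either treatment. Their part in the values of Bag3 and the other members was not tested.

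Hspb1 (HSP27), a small heat shock protein that holds unfolding proteins and binds actin, was close to the bottom of the range, with 85 to 127 counts per library. It had 3.45, 3.29 and 4.10 CPM with PBS, 4.0, 3.58 and 3.85 CPM with fluvastatin and 4.75, 3.98 and 4.31 CPM with MBV. The 3 groups overlapped. Its log2 fold change was 0.08 with fluvastatin (95% interval -0.23 to 0.40, FDR 0.728) and 0.24 with MBV (-0.09 to 0.57, FDR 0.276), so a gain of up to 31.8% with fluvastatin and of up to 48.4% with MBV was within the interval.

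With fluvastatin, 5 of the 10 genes were called higher than PBS (Hsph1, Hspa8, Hspa5, Bag3 and Dnajb1) and 0 lower. Among all 18818 genes tested, 9.36% were called higher and 10.2% lower. The median log2 fold change of the 10 was 0.22, against -0.01 over all genes. All 10 values were above 0, as were those of 9231 of the 18818 genes, and the smallest was that of Hsp90aa1, 0.0027. With GC content offsets, Hspa8, Hsph1 and Hspa5 were called higher, where 6.16% of all genes were called higher and 5.88% lower. The median of the 10 was then 0.15, with 9 of the 10 above 0.

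With MBV, Hsph1 and Hspa8 were called higher than PBS, 2 of 10, and 0 were called lower. Over 18897 genes tested the shares were 12% higher and 14.1% lower, and 2 of 10 genes is close to this background. The median log2 fold change was 0.18, against 0.01 over all genes. With GC content offsets, 3 members were called higher (Hspa8, Hsph1 and Hspa5), with 9.86% of all genes called higher and 10.4% lower. The MBV count was higher without MBV replicate 3, which had 125 CPM of 8 leukocyte genes against 21.6 and 8.90 CPM in the other MBV libraries. That library also had the highest sum of 11 retinal markers in its group (38806 CPM against 31071 and 27725 CPM). Its sum of immediate early genes was the lowest (248 CPM against 321 and 413 CPM). Without it 7 members were called: Hspa1b, Hspa8, Hspa5, Hsph1, Dnajb1 and Bag3 as higher and Hsp90aa1 as lower. More of all genes were called as well, 2638 of 18793 higher and 3026 lower. The part of the leukocyte, retinal and immediate early genes was not tested. Lens genes, whose 7 markers summed to 61.1 to 159.6 CPM with MBV against 0.912 to 5.10 CPM with PBS, were also higher with MBV. With fluvastatin these markers summed to 2.20, 20.7 and 1.48 CPM. The part of the lens genes in the members' values was not tested. The 6 pigment cell markers summed to 98.2 to 146 CPM with PBS, 35.5 to 44.4 CPM with fluvastatin and 27.7 to 49.7 CPM with MBV, and their part in the differences was not tested.

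Both treatments were compared with the same 3 PBS libraries, so their values are not independent. Compared directly, within 1 set of libraries, MBV and fluvastatin did not differ past the threshold in any of the 10 genes, and 0 of the 10 reached an unadjusted p under 0.05 in edgeR. In this comparison 0.0267% of 18721 genes were called higher and 0.032% lower, and the shares with GC content offsets were also 0.0267% and 0.032%. DESeq2's Wald test called 126 genes and no member. The 95% interval of the difference was -0.19 to 0.09 for Hspa8 and -0.25 to 0.06 for Hsph1 on the log2 scale. It was -0.36 to 0.06 for Hspa5, and the widest was that of Bag3, -0.50 to 0.52. The smallest FDR was that of Hsp90aa1, 0.567, at a log2 fold change of -0.11 (-0.25 to 0.03).

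**Figure D3:**
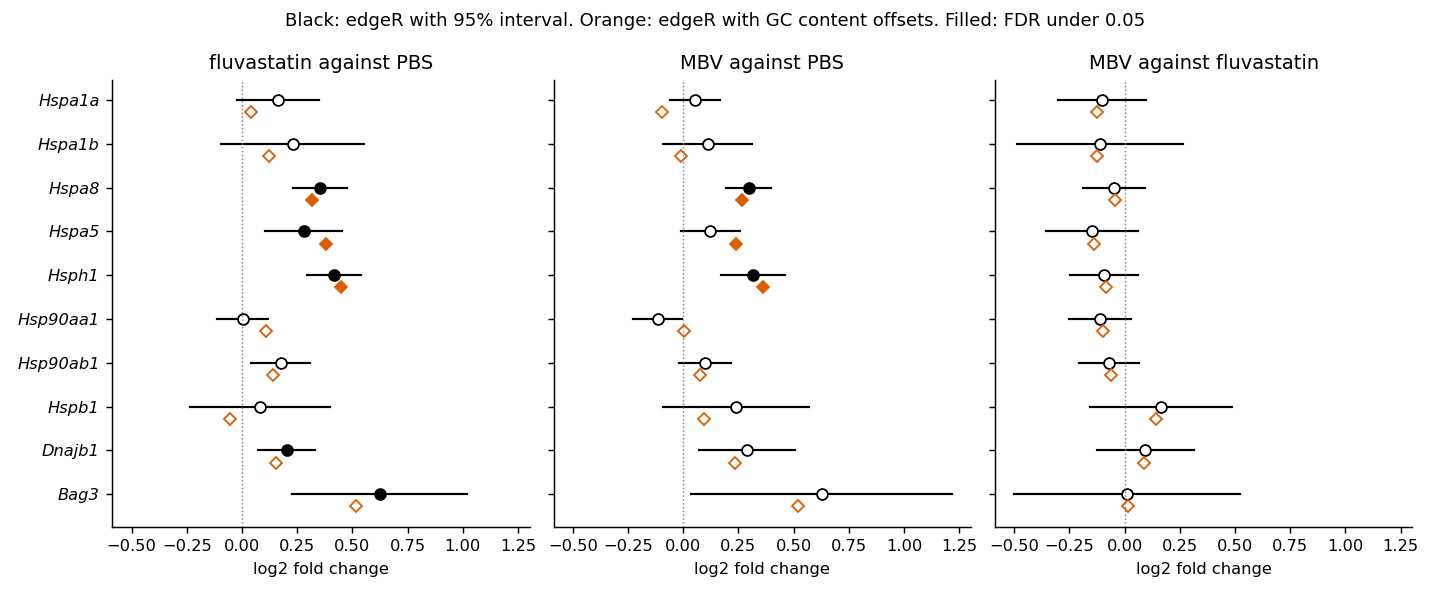
Log2 fold change of the 10 heat shock protein genes in 3 comparisons of 3 against 3 libraries. Black circles are edgeR's values with 95% intervals, orange diamonds are the values with GC content offsets, and filled symbols have an FDR under 0.05. Hspa8, Hsph1 and Hspa5 have filled diamonds in both comparisons with PBS, and no symbol is filled for MBV against fluvastatin.

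The members lie at both ends of the GC range. The transcripts of Hspb1 (60.5% GC), Hspa1a (58.9%) and Hspa1b (58.1%) are richer in GC than 95.7%, 91.9% and 89.0% of genes, and those of Hspa5 (44.4%) and Hsp90aa1 (44.3%) richer than 19.5% and 19.1%. Hspa8 (51.2%) and Hsp90ab1 (50.8%) lie near the middle. Hence the offsets lowered the values of the first 3 genes, with MBV to -0.10 for Hspa1a and -0.01 for Hspa1b and with fluvastatin to -0.05 for Hspb1, and raised those of Hspa5 and Hsp90aa1.

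**Figure D4:**
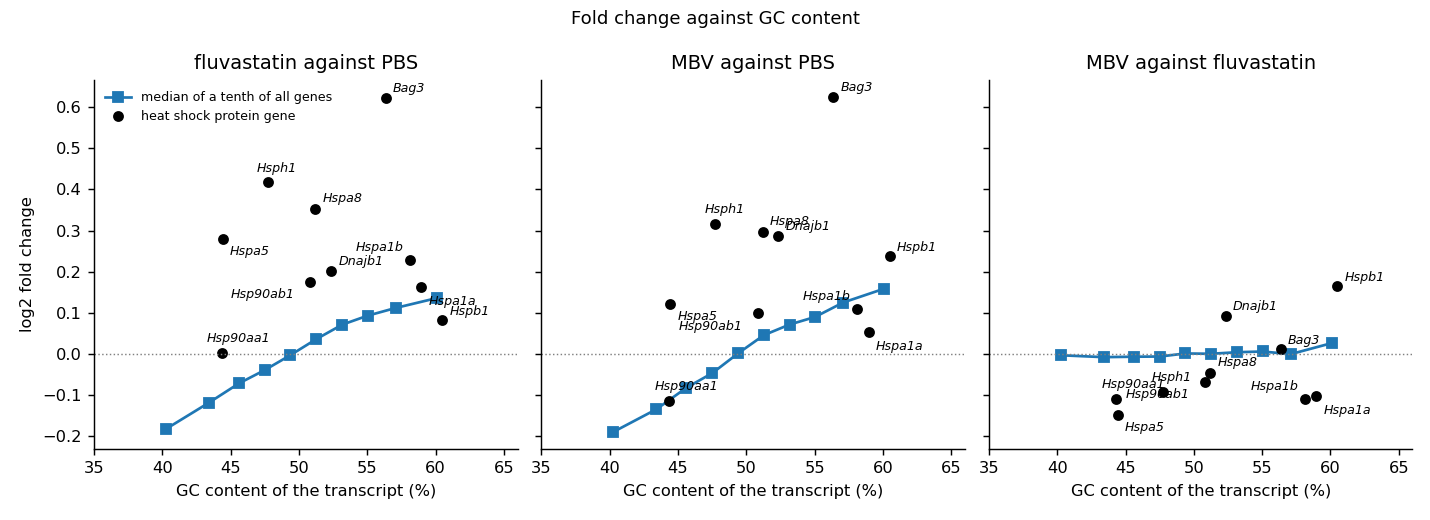
Log2 fold change against the GC content of the transcript in 3 comparisons. Blue squares are medians of 10 equal groups of 13641 genes ordered by GC content and black points are the heat shock protein genes. Against PBS the medians climb from about -0.18 or -0.19 to 0.14 or 0.16. Bag3, Hspa8, Hsph1 and Hspa5 lie well above them, as does Dnajb1 with MBV, and Hspa1a, Hspa1b and Hspb1 lie near them. The medians of MBV against fluvastatin stay between -0.01 and 0.03.

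Among 75 other chaperone genes in 8 lists, changes against PBS ran in both directions: 14 were called higher and 11 lower with fluvastatin, and 10 higher and 20 lower with MBV. The shares of all genes tested were 9.36% higher and 10.2% lower with fluvastatin and 12% higher and 14.1% lower with MBV, and the 10 of 75 called higher with MBV are close to this background. Of 14 ER chaperones, 10 were called higher and 0 lower with fluvastatin, with a median log2 fold change of 0.30. With MBV 5 of the 14 were higher and 1 lower, with a median of 0.13, and the other 8 were not called. With GC content offsets 8 were higher with fluvastatin and 4 with MBV, against 6.16% and 9.86% of all genes, and 0 were lower. Calr, a calcium-binding lectin chaperone for glycoproteins, had 234, 231 and 225 CPM with PBS, 389.8, 311 and 364 CPM with fluvastatin and 336, 366 and 312 CPM with MBV. All treated libraries of Calr lay above PBS, and it rose by 0.63 with fluvastatin (SE 0.0705, FDR 0.000781) and by 0.52 with MBV (SE 0.0514, FDR 0.000531). Hsp90b1 (GRP94), the ER form of HSP90, rose by 0.40 (SE 0.0525, FDR 0.00129) and 0.28 (SE 0.0447, FDR 0.00239). Its difference from the cytosolic HSP90 genes was not tested.

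In the cytosol, Stip1 (HOP), which bridges HSP70 and HSP90, rose by 0.40 with fluvastatin (SE 0.0497, FDR 0.00109) and by 0.33 with MBV (SE 0.0410, FDR 0.000953), and Dnajb5, a J-domain protein related to Dnajb1, by 0.47 (SE 0.0517, FDR 0.000697) and 0.42 (SE 0.0556, FDR 0.00120). Both kept an FDR under 0.05 with GC content offsets. Hspbp1, a co-chaperone that binds HSP70, was lower with MBV (-0.43, SE 0.0589, FDR 0.00134), with 14.5 to 15.3 CPM against 19.6 to 19.9 CPM with PBS. Of the heat shock factors, Hsf1 did not pass the threshold (0.20 with fluvastatin, FDR 0.0997, and 0.13 with MBV, FDR 0.250). Hsf2 was lower with both treatments (-0.34, FDR 0.00294, and -0.33, FDR 0.00280), and these calls were lost with GC content offsets (-0.18, FDR 0.0521, and -0.16, FDR 0.0611).

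Chaperonins are barrel-shaped complexes that enclose actin, tubulin and mitochondrial proteins while they fold. None of 10 was called higher, 3 were called lower with fluvastatin (median -0.13), where 10.2% of all genes were lower, and 7 with MBV (median -0.19), where 14.1% were lower. Cct6a, a subunit of the cytosolic chaperonin, was lowest in FDR, with 145 to 154 CPM with PBS, 127 to 133 CPM with fluvastatin and 122 to 128 CPM with MBV. It fell by 0.21 on the log2 scale with fluvastatin (FDR 0.00826) and by 0.30 with MBV (FDR 0.00134), and with GC content offsets 1 and 5 chaperonins were called lower, against 5.88% and 10.4% of all genes. Among the other small heat shock proteins, the crystallins Cryaa (log2 fold change 5.38, FDR 0.000599) and Cryab (0.58, FDR 0.00571) were higher with MBV, and Hspb6 was lower (-0.33, FDR 0.00669). With PBS, Cryab had 18.6 to 23.0 CPM and Cryaa 0.038 to 2.26 CPM. Cryaa is itself among the lens markers given above. Of the other HSP70 genes, mitochondrial Hspa9 was lower with fluvastatin (-0.21, FDR 0.00508). Its call with MBV (-0.17, FDR 0.0390) was lost with GC content offsets (-0.12, FDR 0.145), with a replicate block, when scaled by DESeq2 size factors or total counts, and on leaving out any library other than MBV replicate 2. No gene of the 8 lists was called between MBV and fluvastatin by edgeR.

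**Figure D5:**
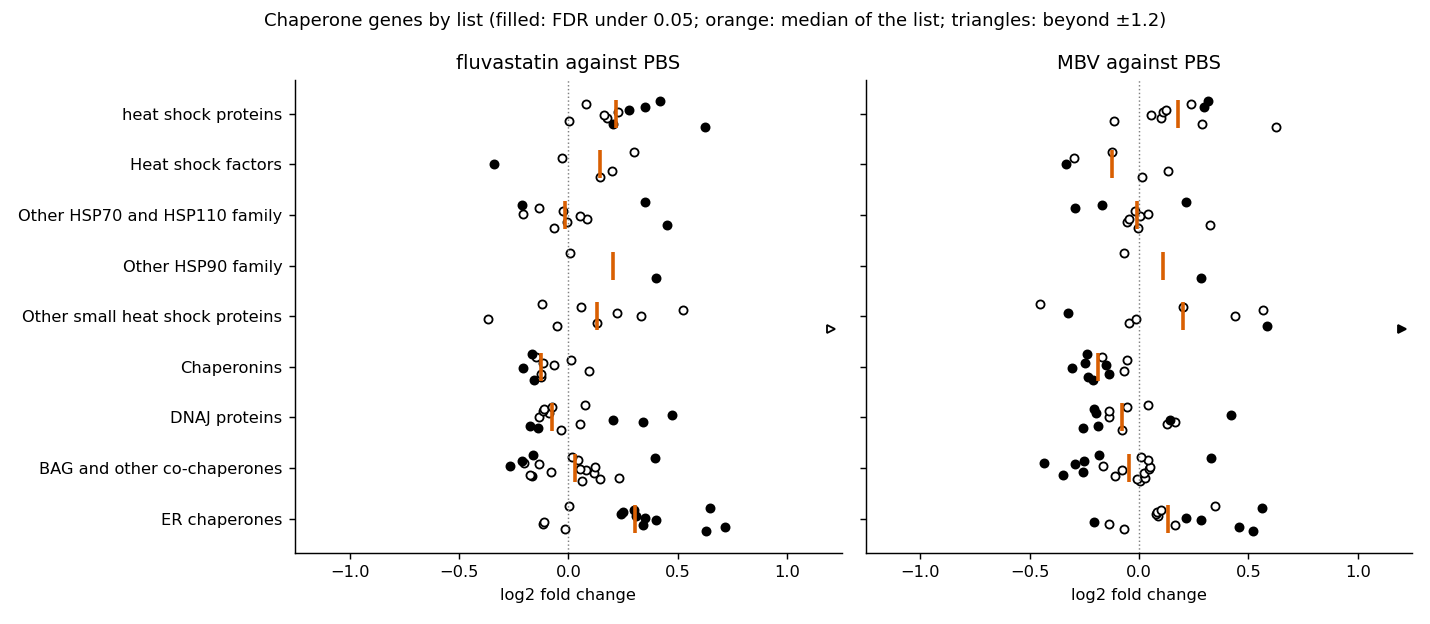
Log2 fold change against PBS of the 10 heat shock protein genes and of the other chaperone genes by list, with fluvastatin on the left and MBV on the right. Each symbol is 1 gene, filled where the FDR is under 0.05, orange bars are list medians and triangles mark Cryaa, beyond the axis. The ER chaperones lie mostly to the right of 0 (median 0.30 with fluvastatin) and the chaperonins mostly to the left (median -0.19 with MBV).

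Genes whose levels ran most like a member's over the 9 libraries were found by Pearson's r of log2(CPM + 0.5) among 13962 other genes with a mean of at least 1 CPM. Since PBS forms 1 set of libraries and both treatments the other, a gene that differs between sets scores high, and no p is given. Hspa8 ran with Calr (r = 0.985), Exoc3l, Men1, Kat2a and Dnajb2 (r = 0.978 to 0.984). Hspa5 ran with the ER proteins Pdia6 (r = 0.976) and Manf (r = 0.972), then Cxcl10, Sp2 and Lysmd4. The sum of Hspa1a and Hspa1b ran with Nip7 (r = 0.940), Arfgef2, Trim24, Ap1s1 and Elovl1. The members themselves were left out of this search.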

How the data were processed

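Total RNA of whole retinas was sequenced as paired reads of 75 bases. The authors aligned the reads to GRCm39, counted them per gene with CLC Genomics Workbench and deposited raw counts per gene without normalization. The gene annotation and strand setting are not given in the sources used here. The 4 tables also hold the authors' fold changes, p-values, FDRs and group means, which were not used, and 6 count columns that name no sample, which were used in no step. Columns that repeat a library held the same counts. No label ties samples to separate animals, so p-values measure the spread between these samples.

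CPM, reads per gene scaled to a common library total, were taken from these deposited counts. All genes not at 0 throughout the 6 libraries of a comparison were scaled by TMM and tested with edgeR 4.0.16 (quasi-likelihood test, Benjamini-Hochberg adjustment over all genes tested, FDR under 0.05) in R 4.3.3, in a fit of the 2 groups alone, after a test on simulated counts. GC content and lengths are of GENCODE M39 canonical transcripts. GC content offsets are the median deviations of each library in 20 bins of GC content. DESeq2 1.42.0 was the other test. The members and lists were chosen with earlier results of these data known. Named are all members, at most 2 genes of each list in each direction and comparison, and the 5 genes most like 3 members. Precision per gene is limited by 3 libraries per group.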

Additional observations from a re-analysis of the deposited data

How the results depend on the processing

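Of 510 values of single members under other settings, 441 kept their direction and side of the threshold, 38 lost a call, 12 gained one and 19 changed sign. Only the 5 members called with fluvastatin and the 2 called with MBV could lose a call. Most values were of results not called in the main fit, so the 441 do not measure how firm the calls are. At a fold of at least 2, for example, 7 values lost a call and 23 stayed uncalled. With fluvastatin, 5 members and 25 other chaperone genes were called. A fold of at least 2 left 0 and 0, statistics divided by the genomic inflation (3.98, the ratio of the median test statistic to its expected value) left 0 and 0, and GC content offsets with that division left 0 and 0. Of all 18818 genes these settings left 220, 0 and 7, so the loss under the division alone held for every gene. GC content offsets alone left 3 members, and 1 fit of all 9 libraries left 3, with 2267 of 18818 and 3514 of 19115 genes called. Leaving out 1 library gave 2 to 6 members and 9 to 25 other genes, with 2 members without PBS replicate 1, PBS replicate 2 or fluvastatin replicate 3 and 9 other genes without PBS replicate 1. The calls over all genes moved too, from 1726 of 18647 (without PBS replicate 1) to 4402 of 18725 (without fluvastatin replicate 1). The main fit called 3687. With MBV, 2 members and 30 other genes were called. A fold of at least 2 left 0 and 1 (Cryaa), and the division by the inflation (4.90) left 0 and 0, with or without GC content offsets. Of all 18897 genes the fold of at least 2 left 369, and the division left 0 with or without the offsets. Leaving out 1 library gave 2 to 7 members and 22 to 30 other genes. Over all genes the calls ran from 2711 of 18740 (without PBS replicate 1) to 5664 of 18793 (without MBV replicate 3), against 4937 in the main fit. Between MBV and fluvastatin, 0 other chaperone genes were called, against 2 by DESeq2's Wald test, 2 in 1 fit of all 9 libraries and 0 to 3 on leaving out 1 library. Of all genes 11 were called in the main fit, and 126, 38 and 0 to 197 in these settings. The inflation and GC settings were chosen after seeing the data, and the cause of these losses was not tested.

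The sign changed with GC content offsets, with or without the division, for Hspb1 with fluvastatin (-0.053) and for Hspa1a (-0.095), Hspa1b (-0.0085), their sum (-0.055) and Hsp90aa1 (0.0035) with MBV. Hsp90aa1 with fluvastatin was -0.0018 scaled by total counts and ran from -0.040 (without fluvastatin replicate 1) to 0.036 on leaving out 1 library, being -0.014 without PBS replicate 3, and Hspa1b ran from -0.020 (without fluvastatin replicate 3) to 0.35. For MBV against fluvastatin, Hspa1a ran from -0.16 to 0.0093 and Hspa1b from -0.23 to 0.13, both highest without fluvastatin replicate 3, and Hspa8 from -0.089 to 0.0061, highest without fluvastatin replicate 1. Bag3 was -0.026 with a replicate block and ran from -0.27 (without MBV replicate 2) to 0.24 (without MBV replicate 3), being -0.069 and -0.034 without fluvastatin replicates 1 and 2. On leaving out 1 library, the sum of Hspa1a and Hspa1b ran from 0.016 to 0.28 with fluvastatin, from 0.036 to 0.11 with MBV and from -0.19 to 0.061 between the treatments.

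The replicate numbers are only names: deviations of same-numbered samples correlated between -0.37 and 0.16 over 15056 genes. With the number as a replicate block, 6, 2 and 0 members and 22, 23 and 0 other chaperone genes were called in the 3 comparisons, and 3727, 3876 and 0 of all genes against 3687, 4937 and 11. The block brought Hsp90ab1 with fluvastatin past the threshold (FDR 0.0444). With log2(CPM + 5) the 5 genes most like each of 3 members were the same genes. Comparisons with the combined treatment, and fits with the set of libraries as a term, were not run because its columns carry no sample names. The low counts of Hspb1 and Bag3 and 3 libraries per group limit what could be detected.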
